A study of Homo sapiens with 42 samples.

Results

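The 58 genes described here encode nucleolar ribosome biogenesis factors, and they were taken by name from the gene column of the count table: 4 of RNA polymerase I, 3 box C/D and 4 box H/ACA snoRNP core proteins, 6 nucleolar scaffold and chaperone proteins, 16 early and 6 late small subunit factors and 19 large subunit assembly factors. They are 58 of 57353 gene names in the table, and 57 of them were among the 12939 genes that passed the filter on low counts. Ribosomes are built in the nucleolus, where RNA polymerase I transcribes the precursor of the ribosomal RNAs. Small nucleolar ribonucleoproteins (snoRNPs) then modify that precursor, box C/D particles by ribose methylation and box H/ACA particles by pseudouridylation, while processome and assembly factors cut and fold it into the small and large subunits. Growth factor signalling, MYC and mTOR are known to set the pace of this pathway in proliferating cells, leukemia cells included.

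Every library came from MOLM-13, a human acute myeloid leukemia (AML) line whose growth is driven by FLT3-ITD, a mutant FLT3 receptor with a repeated segment that keeps the kinase active. Cells were kept for 12 h in RPMI medium with vehicle, with 3 nM quizartinib (AC220), an inhibitor of FLT3, or with quizartinib plus 10 nM everolimus, an inhibitor of mTOR complex 1 (combo). Parallel cultures were kept in hBMSC-CM, in which conditioned medium of HS-5, a human stromal line from bone marrow, made up 50% of the RPMI, with vehicle, everolimus alone, quizartinib alone or the combo, whereas RPMI with everolimus alone was not analysed here. Each of the 7 conditions had 3 cultures, and each of the 21 cultures gave an input library of total poly(A) RNA and a library of the heavy polysome fractions of a sucrose gradient. The labels number the cultures 1 to 3 without saying how they were grown, so the p-values measure the spread between these samples.

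The 42 libraries held 19.4 to 38.8 M counts, with a median of 30.2 M, and no replicate pair agreed within sampling noise. Values are CPM, counts divided by the library total in megacounts and scaled by the TMM method unless another scale is named, and differences are log2 values from edgeR's quasi-likelihood fit with its standard error (SE) and a Benjamini-Hochberg adjusted p over 12939 genes. A gene was called at an adjusted p under 0.05. The mitochondrial share of input counts was 7.05% to 10.2% in replicate 1 of 6 conditions, 3.17% to 5.35% in the other 12 libraries of those conditions and 3.67% to 4.25% with everolimus alone. All 10 myeloid markers examined were present, with summed levels of 1831 to 3084 CPM over the input libraries. The 10 stromal markers summed to 3.33 to 7.18 CPM in RPMI vehicle, 13.8 to 40.2 CPM after quizartinib in RPMI, 3.53 to 6.76 CPM in hBMSC-CM vehicle and 12.2 to 25.7 CPM after quizartinib in hBMSC-CM. COL3A1, LUM and THY1 were at 0 in all of these, and most of the increase was COL1A1, at 20.5 ± 12.3 CPM (SD, n = 3) after quizartinib in RPMI. The part of the stromal markers and of the mitochondrial share in the results below was not tested.

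NOP2, an rRNA methyltransferase of the large subunit pathway, had 0 to 49 counts per library, was at 0 in 4 libraries and was the 1 member left out of all tests. In GENCODE release 44 its exons are shared with a readthrough gene on the same strand, whose part was not tested. GRWD1, HEATR1, LTV1, PPAN, RRS1 and WDR74 also overlap an exon of another gene on the same strand, 22 members overlap an exon on the opposite strand, and 15 have pseudogenes that carry their name, 49 of them for NPM1. The sources used here do not say whether reads were counted by strand, so the values of these genes are uncertain to that extent. Of the 57 tested members 8 have a small nucleolar RNA gene within their bounds on the same strand. This was so for 178 of 10808 (1.65%) of all tested protein-coding genes, members included.

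Promoter windows reaching from 250 bases before to 50 bases after the RefSeq start were at hand for 51 members (GRCh38.p14). The canonical E-box CACGTG, a motif known to be bound by MYC and related factors, stood in windows of 22 of 51 members (43.1%). The same held for 24 of 76 other ribosome biogenesis genes (31.6%) and 1166 of 8943 tested genes with a window (13.0%). Of all 27305 genes with a window 2396 held it (8.78%). Genes with several windows counted once, when any of them held the motif. The motif is its own reverse complement, so 1 search covers both strands, and no other motif was searched. The E-box lay within 50 bases of the start in 21 of 51 members (41.2%) and 492 of 8943 tested genes (5.5%). Of all 27305 genes it did so in 958 (3.51%). A match in the letters is a description and not a bound site. The runs below show this placement from 60 bases before to 30 after the start, with the motif in capitals, for RRP9, MRTO4 and PNO1, which fell steeply with quizartinib, for FBL and NOP10, which fell little or were not called, and for NOP16, which fell furthest and had no match. They lie at chr3:51941875-51941964 (minus strand) for RRP9, chr1:19251745-19251834 (plus) for MRTO4, chr2:68157828-68157917 (plus) for PNO1, chr19:39846350-39846439 (minus) for FBL, chr15:34343107-34343196 (minus) for NOP10 and chr5:176388569-176388658 (minus) for NOP16.
RRP9: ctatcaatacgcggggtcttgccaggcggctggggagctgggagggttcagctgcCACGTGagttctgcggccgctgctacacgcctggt
MRTO4: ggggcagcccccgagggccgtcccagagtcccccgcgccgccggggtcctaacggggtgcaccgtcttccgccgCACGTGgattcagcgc
PNO1: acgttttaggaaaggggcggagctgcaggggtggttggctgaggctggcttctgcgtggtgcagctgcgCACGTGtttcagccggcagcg
FBL: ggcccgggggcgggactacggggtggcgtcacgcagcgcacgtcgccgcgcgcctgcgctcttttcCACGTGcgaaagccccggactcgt
NOP10: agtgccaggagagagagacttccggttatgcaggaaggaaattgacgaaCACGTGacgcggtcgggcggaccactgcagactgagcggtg
NOP16: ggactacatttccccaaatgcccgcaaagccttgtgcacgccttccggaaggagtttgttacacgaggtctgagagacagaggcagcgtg
The median log2 change with quizartinib in RPMI was -2.09 over the 21 tested members with the motif and -1.86 over the 29 without it, so both groups fell by a similar amount.

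In untreated cells the members spanned a wide range of levels per length. In RPMI vehicle input, NPM1, an abundant nucleolar histone chaperone, stood at 1616 ± 119 CPM per kb (SD, n = 3), and FBL, the methyltransferase of box C/D particles, and NCL (nucleolin) followed at 589 ± 39.2 and 582 ± 49.3 CPM per kb. FBL and NCL differed by less than their spread. NOP56 reached 219 ± 20.6 CPM per kb, BOP1 203 ± 25.7, NOP10 179 ± 13.1 and NHP2 154 ± 25.9, again with overlapping spreads between neighbours. The lowest tested member was UTP20, a very long protein of the small subunit processome, at 4.84 CPM per kb. Together the members took 1.32% ± 0.117 of input counts in RPMI vehicle (SD, n = 3).

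That share fell with every drug. It was 0.447% ± 0.0240 after quizartinib and 0.449% ± 0.0239 after the combo in RPMI (SD, n = 3). In hBMSC-CM it stepped down from 1.08% ± 0.0704 with vehicle to 0.866% ± 0.0219 with everolimus, 0.652% ± 0.0904 with quizartinib and 0.512% ± 0.0496 with the combo. In the polysome libraries the same order held, with mean shares of 1.06%, 0.399% and 0.399% in RPMI and 0.970%, 0.709%, 0.558% and 0.434% in hBMSC-CM. Gene by gene, RPMI vehicle had the highest mean input level for 56 of 57 members, the exception being NOP10, and RPMI quizartinib or RPMI combo had the lowest for 51. In hBMSC-CM, 52 members followed the order vehicle, everolimus, quizartinib, combo from high to low, and 51 stood higher with the combo in hBMSC-CM than in RPMI. The conditions share no cultures, but each comparison below shares its control cultures with others of the same medium.

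**Figure D1:**
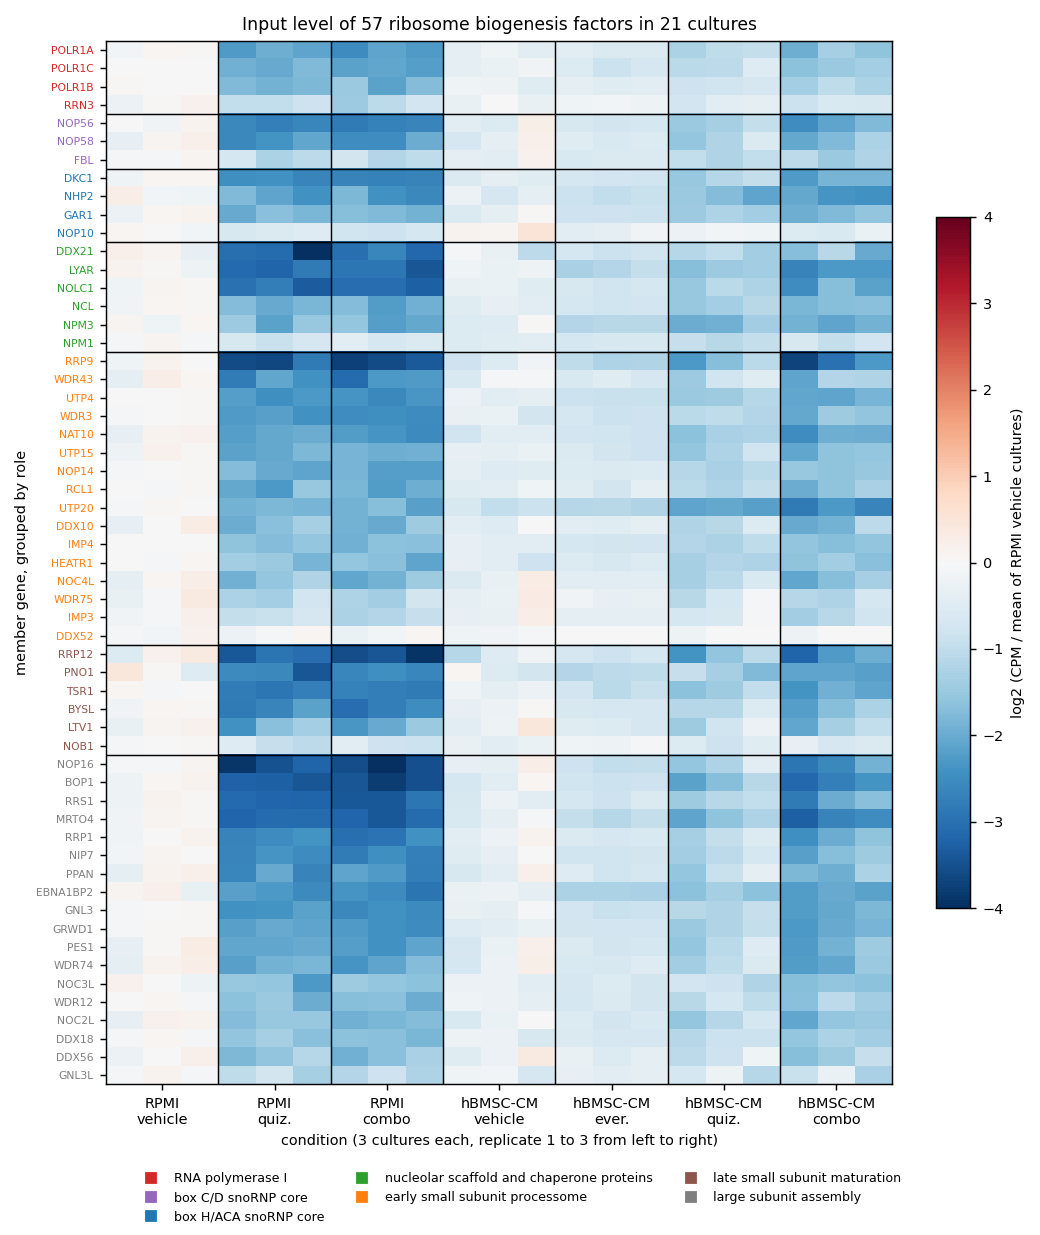
Log2 input level of each tested member in each culture relative to the mean of the RPMI vehicle cultures, with blue for lower and red for higher. Each gene has a line, grouped by role, and each culture a column, with the cultures of a condition side by side (n = 3 each). The RPMI quizartinib and combo columns are the darkest, with member medians of -1.98 and -2.13, against -0.67 for everolimus, -1.09 for quizartinib and -1.71 for the combo in hBMSC-CM.

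The first comparison asks how FLT3 inhibition changed these transcripts in each medium. In RPMI, quizartinib lowered 54 of 57 members and raised 0, where 18.0% of all tested genes were lower, and the median log2 change was -1.99 over the members and 0.08 over all genes. The 3 vehicle and 3 quizartinib cultures did not overlap for 56 of 57 members, all with quizartinib lower, which was so for 27.2% of all genes. With the replicate number as a block 55 members were lower (21.4% of all genes), and 56 with a block within each fraction (24.4%). The 92 other tested ribosome biogenesis genes moved less, with 68 lower and 2 higher and a median of -1.09. Both lists were chosen with earlier results of these data known, so this contrast and those below are description only. In hBMSC-CM, quizartinib lowered 27 of 57 members and raised 0, where 6.84% of all genes were lower, with a member median of -0.77. For 44 members all quizartinib cultures were below all vehicle cultures, which was so for 17.2% of all genes. With the replicate number as a block 41 were lower (11.3% of all genes), and 47 with a block within each fraction (15.6%). Without quizartinib replicate 1, quizartinib replicate 2 or vehicle replicate 3 in hBMSC-CM the count was 13, 15 and 16. Of the other ribosome biogenesis genes 24 were lower in hBMSC-CM, with a median of -0.52. In bulk samples fewer cells of a type and less RNA per cell cannot be told apart.

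The quizartinib effect itself was tested for a difference between the media. The fall was smaller in hBMSC-CM for 57 of 57 members, with a median difference of 1.24 on the log2 scale, and the difference was called for 27, where 1.79% of all genes were called in that direction. With a block within each fraction it was called for 41 members and 5.13% of all genes. Of the 92 other ribosome biogenesis genes 6 were called. Called members came from every role: 9 of 18 large subunit factors, 6 of 16 early and 4 of 6 late small subunit factors, 3 of 4 of RNA polymerase I, 3 of 6 scaffold proteins and 1 core protein of each snoRNP class (NOP56 and DKC1).

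**Figure D2:**
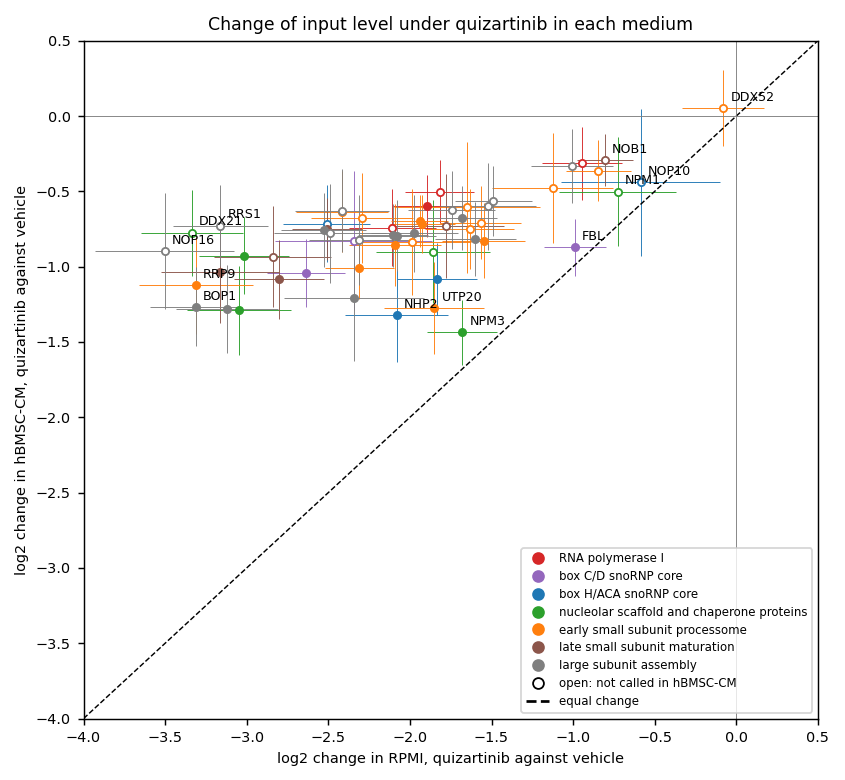
Log2 change of input with quizartinib against vehicle in hBMSC-CM (y axis) against the same change in RPMI (x axis), one point per tested member coloured by role (n = 3 cultures per group), with open points for members not called in hBMSC-CM. All 57 points lie above the line of equal change, and the RPMI changes reach -3.50 while those in hBMSC-CM end at -1.44.

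RNA polymerase I transcribes the ribosomal RNA genes, and all 4 of its members were lower with quizartinib in RPMI, with a median of -1.86. POLR1A, the largest catalytic subunit, stood at 94.0, 109 and 105 CPM in the RPMI vehicle cultures and at 21.1, 26.3 and 24.0 CPM after quizartinib. The groups lay far apart, with a log2 change of -2.11 (SE 0.27, adjusted p = 9.73e-08). In hBMSC-CM its vehicle cultures held 79.5, 91.0 and 74.4 CPM and its quizartinib cultures 42.9, 51.0 and 52.7 CPM, a change of -0.74 (adjusted p = 0.0516, or 0.0267 with a replicate block), and the groups did not overlap. POLR1B, the second catalytic subunit, changed by -1.82 (adjusted p = 2.34e-08) in RPMI and by -0.50 (adjusted p = 0.105, or 0.0274 with a block within each fraction) in hBMSC-CM. POLR1C, a subunit shared with RNA polymerase III, changed by -1.89 (adjusted p = 7.85e-09) and -0.60 (adjusted p = 0.0479). RRN3, the initiation factor that brings the polymerase to the promoter, moved least of this group. Its cultures held 56.1, 68.3 and 73.5 CPM with vehicle and 33.1, 33.0 and 36.6 CPM with quizartinib in RPMI, a change of -0.95 (SE 0.24, adjusted p = 0.00243), and the difference between media was 0.63 (adjusted p = 0.574).

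The box C/D core proteins split. NOP56, a scaffold protein of the particle, held 418, 379 and 458 CPM in RPMI vehicle and 70.3, 63.2 and 68.2 CPM after quizartinib, a change of -2.64 (SE 0.24, adjusted p = 1.33e-10). NOP58, its partner, changed by -2.34 (SE 0.48, adjusted p = 2.13e-04). FBL, the catalytic protein of the same particle, went only from 632, 641 and 713 CPM to 405, 275 and 322 CPM, a change of -0.99 (SE 0.19, adjusted p = 8.71e-05). In hBMSC-CM its vehicle cultures held 511, 493 and 739.8 CPM and its quizartinib cultures 332, 287 and 336 CPM, a change of -0.87 (adjusted p = 0.00221) that was nearly the same as in RPMI. The difference between media was 0.12 for FBL (adjusted p = 0.986) and 1.60 for NOP56 (adjusted p = 0.00317), whose hBMSC-CM cultures held 310.1, 286 and 494 CPM with vehicle and 148, 166 and 216 CPM with quizartinib.

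Among the box H/ACA core proteins 3 of 4 were lower with quizartinib in RPMI. DKC1 (dyskerin), the pseudouridine synthase, held 255, 304 and 306 CPM with vehicle and 52.4, 53.4 and 45.9 CPM with quizartinib in RPMI, a change of -2.51 (SE 0.27, adjusted p = 3.95e-09). In hBMSC-CM its change was -0.72 (adjusted p = 0.0596, or 0.0107 with a replicate block). NHP2 fell in both media, by 2.08 on the log2 scale in RPMI (adjusted p = 2.75e-06) and by 1.32 in hBMSC-CM (adjusted p = 0.00425), and GAR1 changed by -1.83 and -1.08 (adjusted p = 2.95e-07 and 0.0027). NOP10, the shortest member at 64 codons, held 96.5, 92.2 and 83.4 CPM with vehicle and 57.9, 60.03 and 63.5 CPM with quizartinib in RPMI. These cultures did not overlap, but the change of -0.58 was not called (SE 0.49, adjusted p = 0.378, or 0.0337 with a block within each fraction).

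The nucleolar scaffold proteins ranged from the steepest falls to values that were not called. DDX21, an RNA helicase of the nucleolus, held 126, 118 and 87.3 CPM in RPMI vehicle and 13.4, 13.0 and 6.35 CPM after quizartinib, a change of -3.34 (SE 0.31, adjusted p = 2.32e-10). In hBMSC-CM the vehicle cultures held 106, 88.4 and 53.1 CPM and the quizartinib cultures 49.0, 54.7 and 41.1 CPM, which overlap, and the change was -0.77 (adjusted p = 0.0684, or 0.0476 with a replicate block). Its difference between media was 2.56 (SE 0.41, adjusted p = 0.000184). NPM3, a small chaperone of the nucleoplasmin family, behaved otherwise, with 95.7, 79.6 and 94.7 CPM against 32.4, 20.5 and 31.3 CPM in RPMI and 61.3, 62.4 and 93.5 CPM against 22.6, 23.7 and 34.1 CPM in hBMSC-CM. It fell by 1.68 in RPMI (adjusted p = 1.46e-07) and by 1.44 in hBMSC-CM (adjusted p = 3.77e-05) on the log2 scale, and the difference between media was 0.24 (adjusted p = 0.936). NCL held 2063, 2418 and 2373 CPM with vehicle and 683, 568 and 640.3 CPM with quizartinib in RPMI, a change of -1.86 (SE 0.35, adjusted p = 7.22e-05). NPM1 held 2072, 2311 and 2016 CPM with vehicle and 1361, 1156 and 1350 CPM with quizartinib, and its change of -0.73 was not called (SE 0.36, adjusted p = 0.118, or 0.0344 with a replicate block) although the cultures did not overlap. NOLC1, a chaperone of snoRNPs, and LYAR, a nucleolar zinc finger protein, were lower in both media, with changes of -3.02 and -3.05 in RPMI and of -0.93 (adjusted p = 0.0149) and -1.29 (adjusted p = 0.00375) in hBMSC-CM.

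Of the 16 early small subunit processome factors 15 were lower with quizartinib in RPMI, with a median of -1.89, and 7 in hBMSC-CM. RRP9, a protein of the snoRNP that guides the first cleavages, held 81.0, 101 and 91.8 CPM with vehicle and 7.57, 7.21 and 12.8 CPM with quizartinib in RPMI. It changed by -3.31 there (SE 0.35, adjusted p = 3.23e-09), and by -1.12 in hBMSC-CM (adjusted p = 0.0193), where its cultures held 51.0, 62.3 and 82.2 CPM against 18.6, 28.2 and 43.0 CPM. NOP14, the early processome member with the highest mean input CPM, held 231, 244 and 248 CPM with vehicle and 72.8, 59.9 and 55.7 CPM with quizartinib in RPMI, a change of -1.94 (SE 0.18, adjusted p = 1.51e-10). IMP3, another processome protein, changed by -0.84 in RPMI (adjusted p = 0.00113) and by -0.36 in hBMSC-CM (adjusted p = 0.249, or 0.0276 with a block within each fraction). UTP20, the longest member at 2785 codons, fell in both media, by 1.85 (adjusted p = 1.15e-05) and 1.27 (adjusted p = 0.00504) on the log2 scale. The WD-repeat and scaffold proteins that bind the precursor first gave changes in RPMI of -2.31 for UTP4, -1.99 for UTP15, -2.42 for WDR43, -1.13 for WDR75, -1.57 for HEATR1 and -2.29 for WDR3, all called. In hBMSC-CM, UTP4 was called (-1.01, adjusted p = 0.0011) and the others were not without a block. With a replicate block HEATR1, WDR43 and UTP15 were called there as well (adjusted p = 0.0296, 0.0289 and 0.0323), and with a block within each fraction WDR3 (0.0203). NAT10, an RNA acetyltransferase, NOC4L and RCL1 were called in both media, with -2.09, -1.55 and -1.93 in RPMI and -0.85, -0.83 and -0.72 in hBMSC-CM. IMP4 and the helicase DDX10 were called in RPMI (-1.63 and -1.65) but not in hBMSC-CM (adjusted p = 0.0596 and 0.402), where a replicate block gave IMP4 an adjusted p of 0.0166. DDX52, another RNA helicase, was the exception of this role. Its RPMI cultures held 42.1, 41.4 and 50.1 CPM with vehicle and 37.8, 42.2 and 46.4 CPM with quizartinib, which overlap, and its change was -0.08 (SE 0.25, adjusted p = 0.834).

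Late small subunit maturation takes place partly in the cytoplasm, and all 6 of its factors were lower with quizartinib in RPMI, with the lowest median of the 7 roles at -2.66. TSR1 held 159, 147 and 149 CPM with vehicle and 22.1, 20.4 and 22.8 CPM with quizartinib in RPMI, and 134, 117 and 129.9 CPM against 48.2, 56.2 and 76.0 CPM in hBMSC-CM. Its changes were -2.80 (SE 0.28, adjusted p = 8.04e-10) and -1.08 (adjusted p = 0.00553), with a difference of 1.72 between media (adjusted p = 0.00632). NOB1, the endonuclease that makes the last cut of the small subunit RNA, fell less, from 111, 113 and 117 CPM to 80.0, 60.6 and 54.9 CPM in RPMI, a change of -0.81 (SE 0.17, adjusted p = 3.46e-04). PNO1, its partner protein, was low throughout, at 30.1, 22.4 and 15.4 CPM with vehicle and 3.76, 3.64 and 2.04 CPM with quizartinib, and changed by -2.84 (adjusted p = 8.8e-08). RRP12 and BYSL were lower in both media, with -3.17 and -2.51 in RPMI and -1.04 (adjusted p = 0.0382) and -0.75 (adjusted p = 0.0135) in hBMSC-CM, and LTV1 in RPMI (-1.78) but not in hBMSC-CM (adjusted p = 0.167, or 0.0314 with a replicate block).

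All 18 tested large subunit factors were lower with quizartinib in RPMI, with a median of -2.21, and 9 in hBMSC-CM. NOP16, a nucleolar protein of early large subunit particles, held 115, 119 and 133 CPM in RPMI vehicle and 8.28, 10.8 and 13.3 CPM after quizartinib. This was the largest change of any member, at -3.50 or 11.3-fold (SE 0.42, adjusted p = 4.48e-08). In hBMSC-CM the NOP16 cultures held 96.3, 95.5 and 148 CPM with vehicle and 41.9, 52.2 and 88.3 CPM with quizartinib, which do not overlap, and the change of -0.90 was not called (SE 0.39, adjusted p = 0.123, or 0.0338 with a replicate block). BOP1, a subunit of the PeBoW complex that processes large subunit precursors, held 423, 517 and 540.3 CPM in RPMI vehicle and 51.7, 51.4 and 46.1 CPM after quizartinib, a change of -3.31 (SE 0.28, adjusted p = 3.28e-11). Its hBMSC-CM cultures held 301, 359.7 and 518 CPM with vehicle and 111, 150.2 and 229.6 CPM with quizartinib, a change of -1.27 (adjusted p = 0.00131). Its partner proteins PES1 and WDR12 fell by 2.08 and 1.68 on the log2 scale in RPMI (adjusted p = 2.56e-08 and 1.51e-07). RRS1, which loads the smallest ribosomal RNA particle, changed by -3.16 in RPMI (adjusted p = 1.71e-10) and by -0.73 in hBMSC-CM (adjusted p = 0.0684, or 0.00486 with a replicate block). NOC2L, the other high member of this role, changed by -1.60 (adjusted p = 3.91e-06) and -0.82 (adjusted p = 0.0243).

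The remaining large subunit factors lay between these. MRTO4, a nucleolar relative of the ribosomal stalk protein, was lower by 3.12 on the log2 scale in RPMI, and EBNA1BP2, GRWD1, WDR74 and RRP1 gave -2.34, -2.10, -1.97 and -2.53. These were also called in hBMSC-CM, where MRTO4 gave -1.28 (adjusted p = 0.00308), EBNA1BP2 -1.21 (0.0492), GRWD1 -0.79 (0.0106), WDR74 -0.78 (0.0429) and RRP1 -0.76 (0.0382). NIP7 (-2.49), PPAN (-2.42), GNL3 (nucleostemin, -2.31), NOC3L (-1.74) and the helicases DDX18 (-1.52) and DDX56 (-1.49) were lower in RPMI and not called in hBMSC-CM, where their adjusted p ran from 0.0635 to 0.177. With a replicate block GNL3 and NIP7 were called there (adjusted p = 0.0112 and 0.0191), and with a block within each fraction NOC3L, DDX18 and DDX56 as well (0.0181, 0.0276 and 0.00481). GNL3L, a GTPase related to GNL3, had the smallest fall of the role in RPMI, at -1.01 (adjusted p = 0.00167), and was at -0.33 in hBMSC-CM (adjusted p = 0.424).

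**Figure D3:**
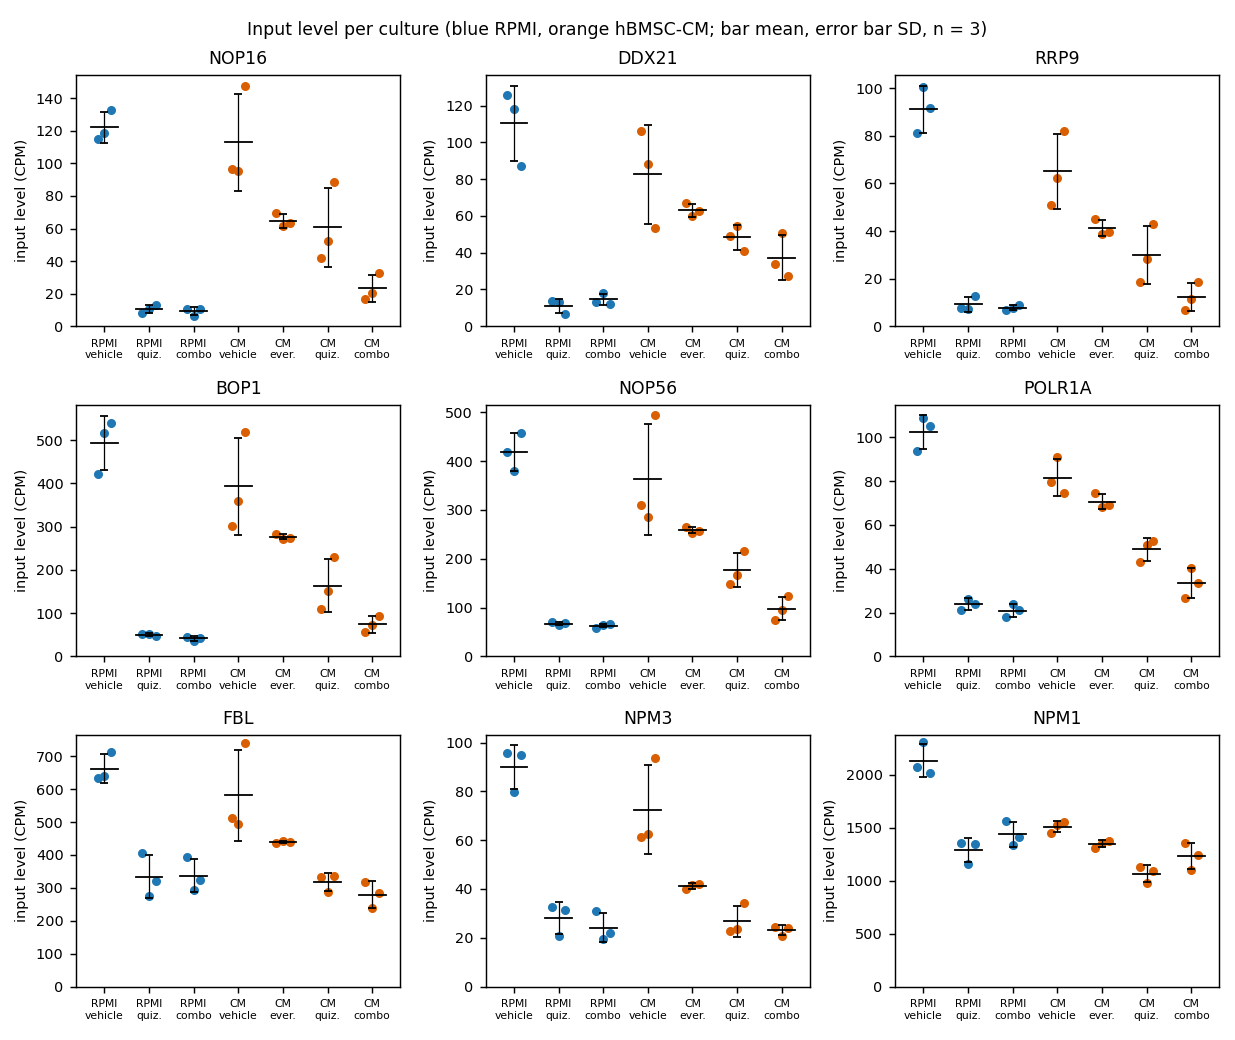
Input level in CPM (linear axis) of 9 members in the 3 cultures of each of the 7 conditions, with a bar at each mean and the SD as error bar. NOP16 drops 11.3-fold and DDX21 10.1-fold between RPMI vehicle and RPMI quizartinib, whereas NPM1 drops 1.66-fold and NPM3 reaches similar levels with quizartinib in both media, at 28.1 and 26.8 CPM.

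Levels of the members were also compared between the media at a fixed treatment. With vehicle, the median member stood at -0.31 in hBMSC-CM relative to RPMI and 56 of 57 values were below 0, but 0 members were called by edgeR, where 1.3% of all genes were called higher and 0.209% lower. At an unadjusted p under 0.05 there were 3 (NOP14, UTP20 and HEATR1), where 7.5% of all genes were, and limma voom called 1 (UTP20) and DESeq2 0. The member with the smallest p was NOP14, at -0.47 (adjusted p = 0.263). With quizartinib the order turned: 32 members were higher in hBMSC-CM than in RPMI, where 6.11% of all genes were, with a median of 0.90 and 53 of 57 values above 0. The 4 below 0 were FBL (-0.07), NPM3 (-0.07), UTP20 (-0.25) and NPM1 (-0.27), none of them called. NOP16 was 2.49 higher on the log2 scale (SE 0.41, adjusted p = 4.11e-05) and DDX21 was 2.14 higher (SE 0.30, adjusted p = 3.27e-06). By role, 14 of 18 large subunit factors, 6 of 16 early and 4 of 6 late small subunit factors, 3 of 4 of RNA polymerase I and 3 of 6 scaffold proteins were called higher.

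Adding everolimus was compared with quizartinib alone within each medium. In RPMI, where the members were already low, 0 were called by edgeR (0.00773% of all genes were called lower) and 0 had an unadjusted p under 0.05 in edgeR, limma voom or DESeq2. The median was -0.13, and the smallest p belonged to RRP12, a late small subunit export factor, at -0.49 (unadjusted p = 0.158). In hBMSC-CM the combo lowered 2 members, where 0.24% of all genes were lower, with a median of -0.62 and 54 of 57 values below 0. BOP1 stood at 55.3, 73.3 and 92.8 CPM with the combo, below all 3 quizartinib cultures, a change of -1.15 (SE 0.26, adjusted p = 0.0432). RRP1, another large subunit factor, held 55.7, 71.5 and 96.5 CPM with quizartinib and 25.4, 35.5 and 45.4 CPM with the combo, a change of -1.07 (SE 0.25, adjusted p = 0.0484). The values of NOP16, at 41.9, 52.2 and 88.3 CPM with quizartinib and 16.5, 20.3 and 32.6 CPM with the combo, did not overlap either but gave -1.39 (adjusted p = 0.138, or 0.0208 with a replicate block). At an unadjusted p under 0.05 there were 33 members, where 6.1% of all genes were. For 36 members all combo cultures were below all quizartinib cultures, which was so for 8.9% of all genes. The count of called members was 14 with a replicate block (1.1% of all genes lower), 23 with a block within each fraction (2.69%), 7 in DESeq2 and 0 in limma voom. It was 8 without quizartinib replicate 1, 4 without combo replicate 3 and 0 without quizartinib replicate 2 or 3 or combo replicate 1 or 2.

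Everolimus alone, which inhibits mTOR complex 1, was compared with vehicle in hBMSC-CM. The median member changed by -0.38, with 54 of 57 values below 0, and 0 were called by edgeR, where 0.224% of all genes were called higher and 0.185% lower. At an unadjusted p under 0.05 there were 15 members, where 8.68% of all genes were, and limma voom called LYAR and DESeq2 called NPM3. NPM3 had the smallest p, with vehicle cultures at 61.3, 62.4 and 93.5 CPM and everolimus cultures at 40.0, 41.8 and 41.9 CPM. These did not overlap, and the change was -0.81 (SE 0.21, adjusted p = 0.0733). For NOP10, whose level was highest in hBMSC-CM vehicle, the everolimus cultures held 68.3, 71.1 and 82.4 CPM against 99.7, 97.1 and 129 CPM, a change of -0.55 (adjusted p = 0.855). The everolimus cultures stood apart from the others in their spread. Between replicates of a fraction, counts differed by a chi-square per degree of freedom of 4.96 to 16.8 with everolimus alone, against 30.1 to 307 elsewhere. Same-numbered everolimus and vehicle input libraries deviated from their group means with correlations of -0.015 to 0.0 over genes, against 0.347 to 0.658 in the other comparisons, and replicate 1 lacked the high mitochondrial share seen in the other conditions. The part of this in the everolimus values was not tested.

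The heavy polysome libraries hold transcripts loaded with many ribosomes. Polysome level minus input level describes how far a transcript was found on large polysomes relative to other transcripts. Each library was scaled to its own total, so a change in the whole amount of polysome RNA does not show in these values. The paper reports that quizartinib, alone or with everolimus, reduced RNA yield more in heavy polysomes than in input. A rise of polysome minus input below is therefore relative and not a rise in total loading. In RPMI vehicle 21 members were higher in polysome than in input and 19 lower, where 31.5% of all genes were higher and 33.9% lower, and the member median was 0.02 (-0.06 over all genes). In hBMSC-CM vehicle 21 were higher and 16 lower, where 29.6% and 34.0% of all genes were, with a median of 0.07 (-0.11 over all genes). These splits depend on the scaling, since with library size alone the median of all genes was -0.61 and -0.63 and the members split into 18 higher and 27 lower in RPMI and 18 and 24 in hBMSC-CM. Of the members 16 were below -1 and 18 above 1 in RPMI vehicle. The share of all genes beyond these values was not computed, so this spread is not shown to be particular to the members. NOP58 was the lowest, at -3.18, -3.81 and -3.62 in the 3 RPMI vehicle cultures (-3.56, SE 0.51, adjusted p = 4.72e-07). GRWD1, a histone-binding protein of large subunit particles, was the highest, at 2.38, 2.15 and 1.44 (2.03, SE 0.22, adjusted p = 4.19e-09). Values in hBMSC-CM vehicle were close to these, at -3.41 for NOP58 and 2.13 for GRWD1. By role, large subunit factors had 10 of 18 higher and 2 lower, the early processome 5 of 16 higher and 7 lower, and the scaffold proteins 1 of 6 higher and 4 lower. Within box C/D, FBL was higher in polysome while its partner proteins NOP56 and NOP58 were lower.

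Coding length went with these positions. Over the 57 members the log2 coding length and polysome minus input in RPMI vehicle had r = -0.397 (rho = -0.467), against r = -0.226 over 10809 genes, a description across genes that share libraries. Members under 250 codons had a median of 1.07 (8 members, 5 higher and 0 lower), and those of 250 to 500 codons also had 1.07 (18 members, 11 higher and 3 lower). Members of 500 to 750 codons had -0.58 (18 members, 5 higher and 9 lower) and those of at least 750 codons -0.63 (13 members, 0 higher and 7 lower). Over all genes the medians of the same classes were 0.28, 0.26, -0.20 and -0.69. In hBMSC-CM the member correlation was -0.286 with vehicle, -0.443 with everolimus, -0.344 with quizartinib and -0.228 with the combo. In RPMI it was -0.151 with quizartinib and -0.080 with the combo. All genes gave -0.131, -0.252, -0.169 and -0.104 in the same order in hBMSC-CM, and -0.029 and 0.008 in RPMI.

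**Figure D4:**
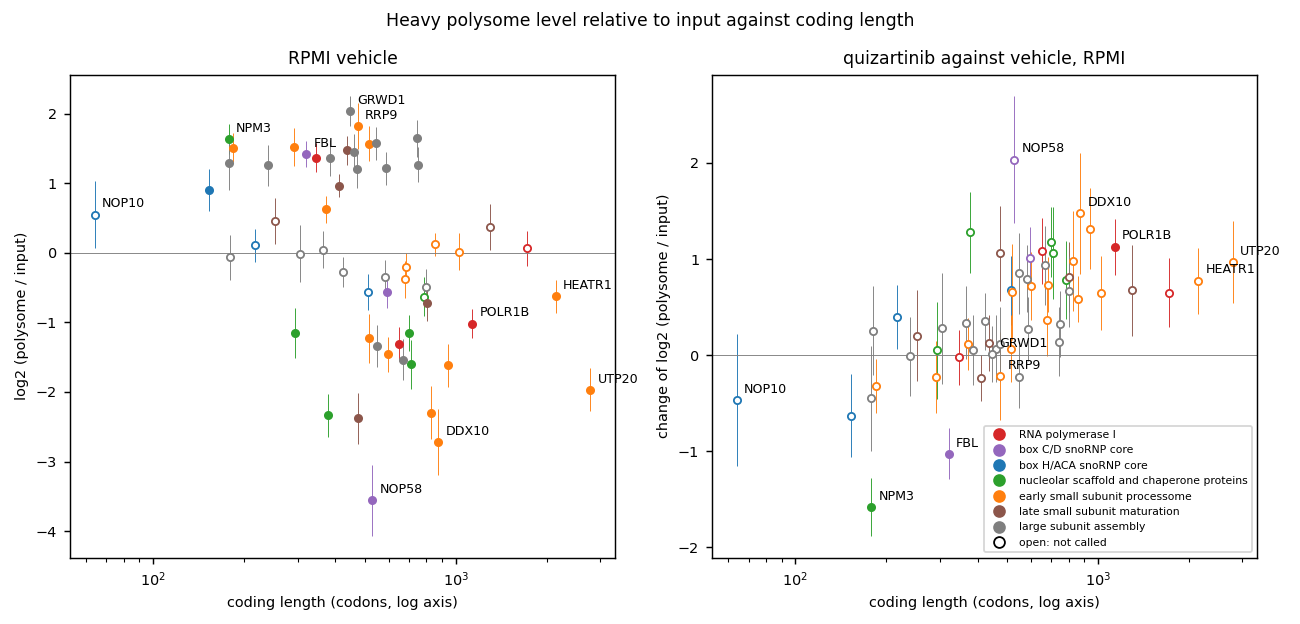
Polysome minus input of each tested member in RPMI vehicle (left, log2) and its change with quizartinib in RPMI (right, log2), against coding length in codons on a log axis, with open points for members not called in that comparison. In the left panel no member of 750 codons or more is called higher in polysome, and in the right panel all 13 members of that length lie above 0. Both panels use the same RPMI vehicle libraries.

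In the edgeR fit without a block, quizartinib in RPMI was the only treatment with called changes in polysome minus input. NPM3 went down, from 1.35, 2.01 and 1.52 in the vehicle cultures to 0.19, 0.36 and -0.37 after quizartinib on the log2 scale (-1.58, SE 0.30, adjusted p = 0.00214). FBL went from 1.52, 1.64 and 1.08 to 0.20, 0.79 and 0.21 (-1.03, SE 0.27, adjusted p = 0.036). Both sets of cultures were apart. POLR1B went up, from -0.80, -1.13 and -1.15 to 0.00, -0.07 and 0.36 (1.13, SE 0.29, adjusted p = 0.0368). These were 1 member higher, where 0.278% of all genes were, and 2 lower, where 1.28% of all genes were. The member median was 0.37, against 0.15 over all genes, and 45 of 57 values were above 0. At an unadjusted p under 0.05 there were 19 members, where 15.6% of all genes were. With a replicate block 5 were called, the others being NOP56 (1.02) and NOP58 (1.83), where 3.79% of all genes were called. With a block within each fraction it was 12, where 11.7% of all genes were called. With each culture as a block NPM3, POLR1B and NOP56 were called, and FBL and NOP58 were not (adjusted p = 0.117 and 0.145). Without a block, leaving out 1 RPMI culture gave NOP58 changes of 1.908 to 2.444, but 0.948 without quizartinib replicate 3 (adjusted p = 0.936). For NOP56 these fits gave 0.904 to 1.135, the lowest without the same culture (adjusted p = 0.526). With no filter on low counts NOP58 was called (1.952, adjusted p = 2.74e-05). NPM3 was called in all 16 alternatives, FBL in 10 and POLR1B in 7. FBL also missed the threshold with no filter on low counts (adjusted p = 0.0697), without quizartinib replicate 1 (adjusted p = 0.14) or replicate 3 (0.113) and without vehicle replicate 1 (0.122) or replicate 2 (0.213), and POLR1B without any 1 of the 6 RPMI cultures, with adjusted p from 0.0538 to 0.352.

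The change went with coding length as well. It shares the RPMI vehicle libraries with the length trend given above, and their values enter the change with a minus sign. An opposite trend with length is therefore in part built in. Members under 250 codons had a median change of -0.39 with quizartinib in RPMI, and 2 of 8 were above 0, against 32.3% of all genes of that length. Those of 250 to 500 codons had 0.09, with 13 of 18 above 0 (59.9% of all genes). Members of 500 to 750 codons had 0.73, with 17 of 18 above 0 (76.0% of all genes), and those of at least 750 codons 0.78, with 13 of 13 above 0 (87.5% of all genes). The medians of all genes in the 4 classes were -0.21, 0.10, 0.29 and 0.54. With library size alone as the scaling the median of all genes in this comparison was 0.228 higher.

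**Figure D5:**
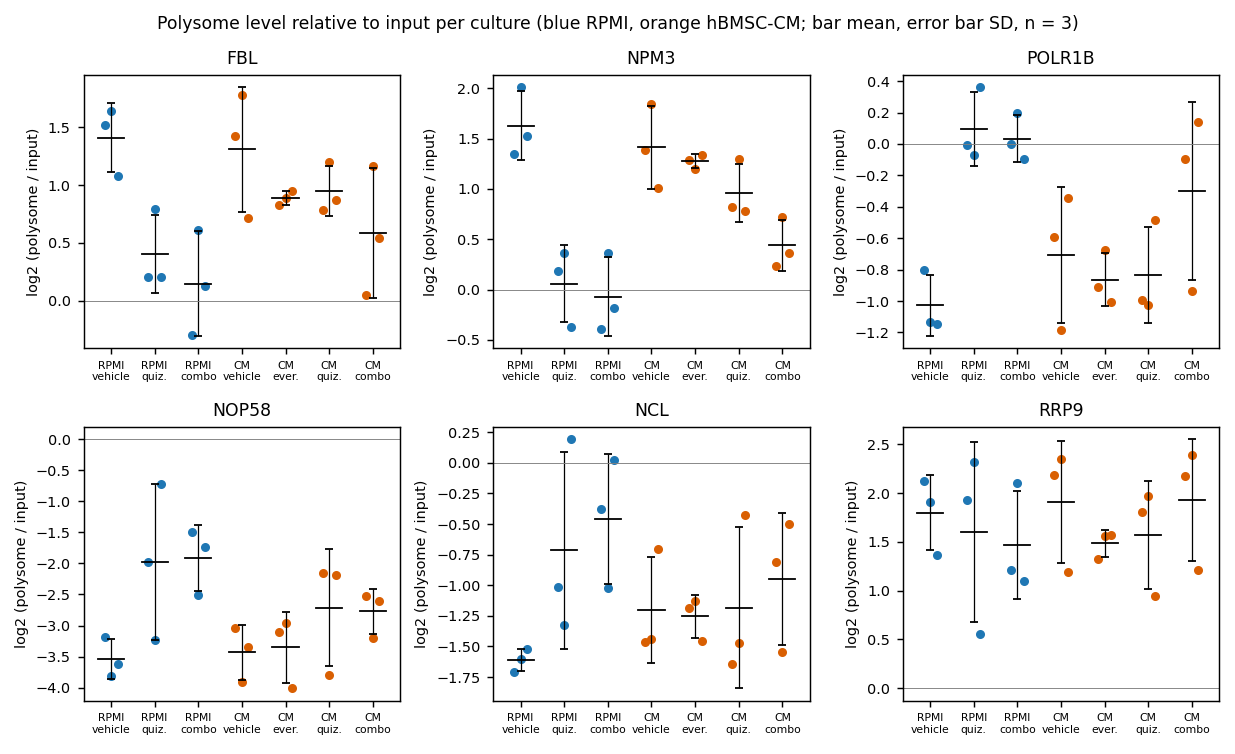
Polysome minus input (log2) of 6 members in the 3 cultures of each of the 7 conditions, with a bar at each mean. FBL and NPM3 are lower after quizartinib in RPMI than with vehicle, POLR1B is higher, and NOP58 lies below 0 in every culture, from -3.81 to -3.18 in RPMI vehicle.

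In the other 7 comparisons of polysome minus input 0 of 12939 genes were called by edgeR without a block (0.0%). Limma voom and DESeq2 called 0 members in each. A replicate block gave 2 called genes for hBMSC-CM against RPMI with quizartinib and 2 for everolimus against vehicle. With a block within each fraction these had 16 higher and 1 lower, and 7 higher and 4 lower. The difference between media then had 2 higher. With these blocks 0 members were called. For quizartinib in hBMSC-CM the member median was -0.05, 0 had an unadjusted p under 0.05, and LTV1 had the smallest p (0.80, unadjusted p = 0.113). For hBMSC-CM against RPMI the median was 0.09 with vehicle, where 0 members had an unadjusted p under 0.05, and -0.34 with quizartinib, where 4 had. In the latter POLR1B was at -0.91 (unadjusted p = 0.0037) and NPM3 at 0.91, the reverse of their signs in the quizartinib comparison in RPMI, with which it shares the quizartinib cultures. The combo against quizartinib gave a median of 0.08 with 0 members under 0.05 in RPMI and 0.20 with 1 (NOP56, 0.75, unadjusted p = 0.0248) in hBMSC-CM. Everolimus against vehicle gave -0.20 with 2 members, of which NOC2L had the smallest p (-0.96, unadjusted p = 0.00837). The difference between media in the quizartinib effect had a median of -0.43 with 4 members, led by POLR1B (-1.24, unadjusted p = 0.00486).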

How the data were processed

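Poly(A) RNA of 21 MOLM-13 cultures was sequenced from input and heavy polysome fractions, 42 libraries in all. Per the study's methods and the submitters' processing notes, the authors trimmed paired reads with BBDuk, removed reads under 50 bases, aligned them with STAR 2.6.0a to hg38 with Ensembl release 96, and deposited raw counts per gene (58884 rows, of which 25133 held no count); the strand setting is not given in the sources used here. Rows that shared a gene name (150 names) were summed. The filter kept 12939 genes whose mean over libraries reached 1 count and 1 CPM, which held 99.8% of counts, and they were scaled by TMM and fitted in edgeR 4.0.16 (R 4.3.3) with the quasi-likelihood test on all 42 libraries as 14 groups without a block. Log2 CPM used a prior count of 2. The common biological coefficient of variation was 0.279, and the TMM factors were 1.06 to 1.25 in input and 0.705 to 1.04 in polysome libraries. The study itself used limma with an interaction term. Changes in polysome minus input were tested as the interaction of treatment and fraction, and p-values were adjusted over all genes kept.

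Alternatives were RLE factors, library size only, no filter, a stricter filter (10 CPM), only the groups compared, 3 kinds of block, limma voom 3.58.1, DESeq2 1.42.0 and leaving out each culture in turn. Same-numbered samples of 1 fraction deviated together in all 3 pairs of every comparison between conditions apart from everolimus against vehicle (correlations of 0.156 to 0.715 over genes). The numbers were therefore taken to pair the samples in the others. Blocked values stand beside many, but not all, of the member calls they change there. Input and polysome libraries of 1 culture deviated together in all 3 cultures (over 0.1) in RPMI vehicle, RPMI quizartinib and hBMSC-CM vehicle only, down to -0.044 in the other conditions. The labels do not say what the number marks. The fits were tested on simulated counts with known changes. Those counts were drawn independently, without a replicate or culture effect, so they do not show how such effects bear on the p-values.

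Members and gene lists were chosen with earlier results of these data known. Named members were all 4 of RNA polymerase I, the 2 with the highest mean input level in each other role, the 2 largest called rises and falls (or the smallest p where none was called) in each comparison, and the shortest and longest protein; other named members were chosen after their values were seen. Coordinates and lengths came from GENCODE release 44 (GRCh38) and promoter windows from RefSeq. Depths limit low genes most, and all intervals reflect these samples only.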

Additional observations from a re-analysis of the deposited data

Results flagged for a closer look

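The quizartinib effect on input differed between the media by a test of the difference itself (edgeR, adjusted p under 0.05) for 27 members, all with the smaller fall in hBMSC-CM. The largest differences on the log2 scale were those of NOP16 (2.606), DDX21 (2.562), RRS1 (2.434), RRP9 (2.187), RRP12 (2.127), NOLC1 (2.089) and BOP1 (2.045). PNO1 (1.91), MRTO4 (1.839), DKC1 (1.795), PPAN (1.787), WDR43 (1.783), RRP1 (1.773), BYSL (1.757), LYAR (1.757), TSR1 (1.721), NIP7 (1.714), WDR3 (1.617) and NOP56 (1.598) followed. The differences of POLR1A (1.365), POLR1B (1.316), GRWD1 (1.314), UTP4 (1.3), POLR1C (1.296), PES1 (1.285), NOP14 (1.242) and RCL1 (1.209) were the smallest of these. Over 21 alternatives the call was lost in 12 for NIP7 and WDR3, 9 for POLR1A, 8 for PES1, 5 for PNO1 and 1 each for LYAR, POLR1B, POLR1C and RCL1, and in none for the other 18.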

How the results depend on the processing

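The fall of the members with quizartinib in RPMI kept 53 to 54 calls when any 1 culture was left out, and the difference between media kept 22 to 25 (41 with a replicate block within each fraction). Members higher in hBMSC-CM than RPMI with quizartinib numbered 28 to 32 when 1 culture was left out. With a replicate block they numbered 34 (8.2% of all genes), and 42 with the block within each fraction (11.4%). For quizartinib in hBMSC-CM the count moved from 27 to 41 with a replicate block, to 47 with the block within each fraction, and to between 13 and 30 when 1 culture was left out. For the combo against quizartinib in hBMSC-CM it moved from 2 to 0 with RLE factors, limma voom or only the groups compared, 5 without a filter, 7 with DESeq2, 14 with a replicate block, 23 with the block within each fraction, and 0 to 8 without 1 culture. For everolimus it moved from 0 to 1 without a filter, with the stricter filter, with a replicate block, with limma voom or with DESeq2. It moved to 2 with only the groups compared and to 6 with the block within each fraction. Of all genes 0.835% were lower there with a replicate block and 2.33% with the block within each fraction. Between media with vehicle, limma voom gave 1. For polysome minus input with quizartinib in RPMI the 3 calls became 5 with a replicate block, 12 with the block within each fraction and 1 to 2 without 1 culture. The block changed the count of calls by over 1.5 times in no other comparison. The sign turned for NOP14 in polysome against input with library size only (-0.45 in RPMI vehicle, -0.009 in hBMSC-CM vehicle) and for EBNA1BP2 in hBMSC-CM vehicle with the block within each fraction (-0.642). The cause was not tested. Scaling shifted the median of all genes by up to 0.548 in polysome against input, 0.228 in polysome minus input and 0.07 in input. Of 286 recomputed counts of called members 33 moved by over 1.5 times and 253 did not. With 3 cultures a group and 1 line, values of members near 5 CPM or less, such as PNO1 after quizartinib and NOP2, are the least certain.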
